A study of Mus musculus with 48 samples.

Results

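RNA from the liver of young adult mice was compared between diets that matched before and after weaning and diets that were switched at weaning, using all 24 liver arrays of a series of 48 arrays, the other 24 of which carry colon RNA. Dams of the C57/BL6 strain and their offspring received a high-fat diet that was either sufficient (H) or marginally deficient (L) in selenium and folate, and groups are named by 2 letters, first for what the dam ate during gestation and lactation, then for what the offspring ate from weaning to 12 weeks of age. HH and LL offspring thus kept the diet of their dam, HL offspring moved from the sufficient to the deficient diet, and LH offspring moved the other way. The study describes diet H as supplemented with both nutrients beyond the recommended requirements, so HH is no control at the requirement. The labels give 2 of the 6 HH arrays the same animal, and their mean was used, so 23 mice entered the comparison (5 HH and 6 in each of HL, LH and LL).

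Each array carried liver RNA of 1 mouse labelled with Cy3 and a common reference labelled with Cy5, without a dye swap. The deposited description gives the reference as RNA of a whole pregnant mouse with its foetus, whereas the methods of the study describe a pool of intestinal and liver RNA, so a level against the reference cannot be read as a level against one known tissue. The litter of each mouse was not given, the study describes the offspring as male, and every group shared the high-fat diet. Fewer cells of a type and less RNA per cell cannot be told apart in whole liver.

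Selenium is built into selenoproteins such as the glutathione peroxidases, and folate carries one-carbon units for nucleotide synthesis and for the methionine cycle that supplies methyl groups. The liver stores both nutrients and, under the clock and feeding, adjusts lipid, bile acid and drug metabolism. Its hepatocytes secrete most plasma proteins, which are folded in the endoplasmic reticulum, and the unfolded protein response raises chaperones when folding falls behind. A comparison of matched with switched diets asks in which transcripts the difference between offspring diets depends on the diet of the dam. It does not exclude an effect of either diet alone, and a single group that stands apart can also give such a contrast.

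The contrast was (LL minus HL) minus (LH minus HH) of the log2 ratio of mouse over reference, which equals (HH plus LL) minus (HL plus LH). A positive value means a higher level with matched diets, and divided by 2 it is the difference between the mean of the matched groups and that of the switched groups. Of 41171 probes tested with limma, 0 passed FDR under 0.05 with a contrast over 1.5-fold, and the lowest FDR was 0.286. At an unadjusted p under 0.05 there were 4674 probes, 11.4% of those tested. Of these, 2224 (5.4%) were higher and 2450 (5.95%) lower with matched diets. A contrast over 1.5-fold was also met by 1453 (3.53%), 701 (1.7%) higher and 752 (1.83%) lower. With 1 probe for each of 18433 named genes the shares were 5.67% higher and 5.99% lower, and these are the background for the counts below. The contrast was above 0 in 52.6% of named genes and its median was 0.01, and for 0 genes did all matched mice lie apart from all switched mice. The verbs rose and fell are therefore not used of any gene here.

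Several libraries stood apart. Each of the 6 liver slides carried 1 array of each group, and on the first principal component, which held 25.7% of the variance, the highest mice were HL replicate 5 (46.0) and LH replicate 5 (44.0) of slide 5, and HL replicate 6 (34.0) and LH replicate 6 (31.0) of slide 6. The arrays of slides 1 to 4 taken alone, 4 per group, gave 947 probes at an unadjusted p under 0.05 (2.3% of those tested) and 0 calls, whereas slides 5 and 6 alone, with 2 mice per group, gave 8916 (21.8%), 11.3% higher and 10.5% lower, and 1358 calls (3.32%). The HH mouse with 2 arrays has 1 in each of these sets. The difference between the sets was not tested. Leaving out the HL and LH mice of slides 5 and 6 left 1672 probes (4.06%), 720 (1.75%) of them higher and 952 (2.31%) lower. Values within slides are therefore given beside many of the results. A result given without them may depend on slides 5 and 6. The median of the pancreatic acinar markers lay 3.64 log2 units above the mean of all mice in HL replicate 1. It was -0.51 to 0.49 in the other 22 mice. All 11 markers were highest in HL replicate 1. HL replicate 2 carried Xist (log2 Cy3 intensity 12.4) and Eif2s3y at 7.03, and LL replicate 6 carried both (9.44 and 11.5), whereas in the other liver arrays Xist was at most 7.62 and Eif2s3y between 10.8 and 12.2. Xist marks female cells and Eif2s3y lies on the Y chromosome, so these livers go against the description as male. Without both mice 0 probes were called, 4036 had an unadjusted p under 0.05, and the contrasts of Cyp2c54 and Bcl6 were -1.66 and -1.90. Of genes with higher levels in female liver 0 of 20 were higher and 1 lower (median -0.29), and of those with higher levels in male liver 0 of 16 in either direction (median -0.24). In the HH animal with 2 arrays, the deviations from the mean of all HH arrays correlated at 0.81 between its arrays. With those of the other HH arrays they correlated at -0.51 to -0.63. That mean includes both its arrays, so the negative sign follows in part from the arithmetic. Of 10 hepatocyte markers measured all 10 were well above background on at least 12 arrays.

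The 12 genes with the lowest p in each direction were taken, at a contrast over 1.5-fold. A signal well above background on at least 12 arrays was also required, which 74.7% of named genes had. The FDR of these 24 genes was 0.286 to 0.290 and their contrasts were 1.5- to 3.25-fold. Dependence on the combination of diets was thus not shown for any of them. In all 24 the deficient diet of the offspring went with opposite signs under the 2 dam diets, as the plot of HL minus HH against LL minus LH shows. This holds for 12145 of 18433 named genes in all. The contrast had the same sign on 6 of 6 slides in 12 of the 12 higher and 11 of the 12 lower genes, against 5.46% of named genes. With slides 1 to 4 alone 24 of 24 had the same sign and an unadjusted p under 0.05, and in 22 the contrast was larger on slides 5 and 6. These genes were selected for this pattern, so the counts describe them and test nothing.

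**Figure D1:**
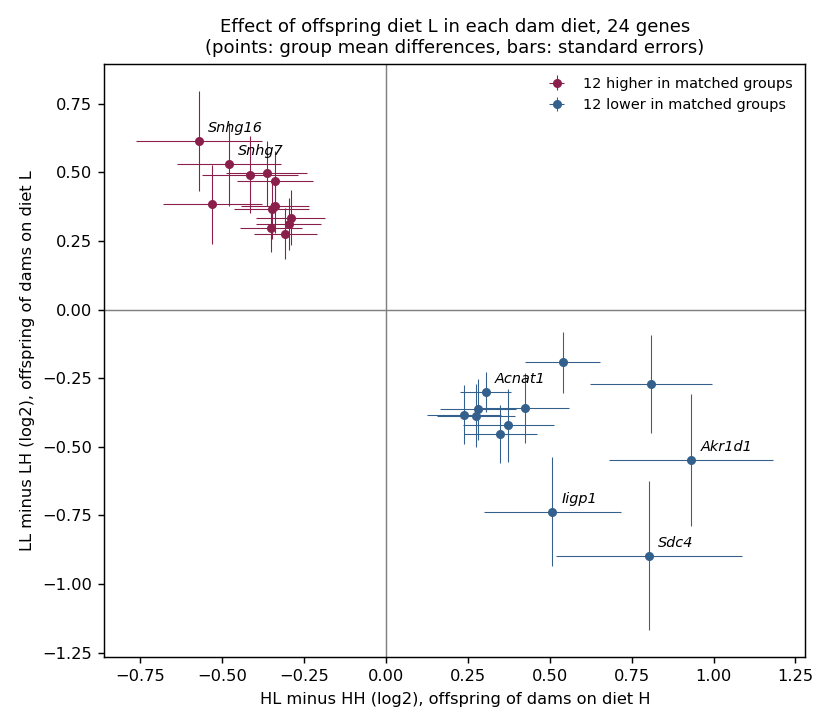
Each point is 1 of the 24 genes, with the log2 difference HL minus HH on the horizontal axis, LL minus LH on the vertical axis and standard errors as bars. The 12 genes higher with matched diets all lie at upper left and the 12 lower ones at lower right, so that the deficient diet of the offspring went with opposite differences under sufficient and deficient dams.

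Among the genes higher with matched diets, 3 were hosts of small nucleolar RNAs, transcripts whose introns release the guides that modify ribosomal RNA. Snhg16 was at -0.12, -0.35, -0.36, -0.27 and -0.46 (log2 ratio to the reference) in the HH mice. In the LL mice it lay between -0.93 and 0.03 with a median of -0.53, in the HL mice between -1.53 and -0.11 with a median of -0.95, and in the LH mice between -1.57 and -0.80 with a median of -1.10. All 5 HH mice lay above all 6 LH mice, while LL and HL overlapped with each other and with LH. The contrast was 1.19 ± 0.27 (SE), FDR 0.290, and 0.93 on slides 1 to 4 alone. Snhg7 (1.01 ± 0.22) and Snhg3 (0.81 ± 0.16) had the same order of group medians, with contrasts of 0.73 and 0.59 on slides 1 to 4. Chosen after their values were seen, all 6 measured genes of the Snhg family were higher at an unadjusted p under 0.05, with a median of 1.02, HL minus HH at -0.40 and LL minus LH at 0.60. Their median contrast in the colon was 0.20.

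Mitochondrial and ribosomal genes followed. Tomm5, a small subunit of the outer-membrane import pore, was at -0.07, -0.26, -0.20, 0.05 and -0.13 in the HH mice. It lay between -0.74 and -0.11 in the LL mice (median -0.23), between -0.74 and -0.30 in the HL mice (median -0.42) and between -0.86 and -0.55 in the LH mice (median -0.73). HH lay above every HL and LH mouse, and 2 of the LL mice reached down into the switched groups. The contrast was 0.71 ± 0.14. Mrps6, a protein of the small mitochondrial ribosomal subunit, had a contrast of 0.65 ± 0.13, and its other probe gave 0.52. Chosen after their values were seen, mitochondrial ribosomal proteins had 19 of 78 measured members higher and 0 lower at an unadjusted p under 0.05 (median 0.18), and the Timm and Tomm import genes 7 of 25 higher and 0 lower (median 0.20). The others of the 12 were Ccdc84 (0.86 ± 0.17), Exoc3l4 (0.91 ± 0.20), Pdgfa, a growth factor ligand (0.91 ± 0.21), Ssna1 (0.71 ± 0.16), Cdh11, a cadherin of mesenchymal cells (0.63 ± 0.14, with 0.25 and 0.20 in its other probes), Bloc1s2 (0.61 ± 0.14) and Arhgef5 (0.59 ± 0.13).

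Of the genes lower with matched diets, Acnat1, an acyltransferase that conjugates fatty acids in peroxisomes, had the lowest p of all probes (9.49e-06). It was at 1.12, 1.09, 1.15, 1.03 and 1.19 in the HH mice. It lay between 1.11 and 1.42 in the LL mice (median 1.26), between 1.28 and 1.56 in the HL mice (median 1.43) and between 1.36 and 1.74 in the LH mice (median 1.61). All HH mice lay below all HL and LH mice, and LL overlapped with HL and LH. The contrast was -0.61 ± 0.11, it was negative on 6 of 6 slides, and it was -0.63 on slides 1 to 4 and -0.54 on slides 5 and 6. St6gal1, the enzyme that adds terminal sialic acid to secreted glycoproteins, had a contrast of -0.80 ± 0.15, and -0.74 in its other probe. Its level was 0.27, 0.58, 0.86, 0.66 and 0.62 in the HH mice, 0.26 to 0.79 in the LL mice (median 0.58), 0.64 to 1.21 in the HL mice (median 0.93) and 0.88 to 1.20 in the LH mice (median 1.05). The LH mice lay above all matched mice, and the HL mice overlapped with them.

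Klf15, a transcription factor of fasting metabolism in the liver, had a contrast of -0.73 ± 0.16 and -1.43 in its other probe. It was at 1.26, 1.76, 1.30, 1.01 and 1.62 in the HH mice, 1.46 to 1.97 in the LL mice (median 1.72), 1.72 to 2.10 in the HL mice (median 1.96) and 1.74 to 2.07 in the LH mice (median 1.90). HL minus HH was 0.54 and LL minus LH was -0.19, so most of its contrast lay under sufficient dams. Akr1d1, the reductase that makes the 5-beta steroid ring of bile acids, had a contrast of -1.48 ± 0.35, with -0.99 on slides 1 to 4 and -2.46 on slides 5 and 6. The cell-surface proteoglycan gene Sdc4 had the largest of the 24 contrasts (-1.70 ± 0.39), but its other probe gave -0.07. Cyp2j13 had -0.62 ± 0.15 with 0.12 and 0.02 in its other probes, and for both genes the probes thus disagree. Transporters among the 12 were Slc16a12 (-1.08 ± 0.26), a carrier for creatine, and Slc2a9 (-0.78 ± 0.19), a urate carrier whose other probes gave -0.82, -0.81 and -0.41. Iigp1, an interferon-induced GTPase, had -1.24 ± 0.29, Dsc2, a desmosomal cadherin, -0.80 ± 0.19, Zfp275 -0.66 ± 0.16, and Paip2b, an inhibitor of translation that binds poly(A)-binding protein, -0.65 ± 0.16 with -0.17 in its other probe. With slide as a block, both arrays of the HH mouse with 2 arrays entered separately, at reduced weight, and not as their mean. In this fit 3 probes were called (0.00729%), and 15.7% had an unadjusted p under 0.05, 7.34% higher and 8.38% lower. They were those of Paip2b (-0.61, FDR 0.0239) and Wdr4, a subunit of a tRNA methyltransferase (0.71, FDR 0.0239), and a probe without a name (1.47, FDR 0.0239). The last 2 were named after their values were seen.

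**Figure D2:**
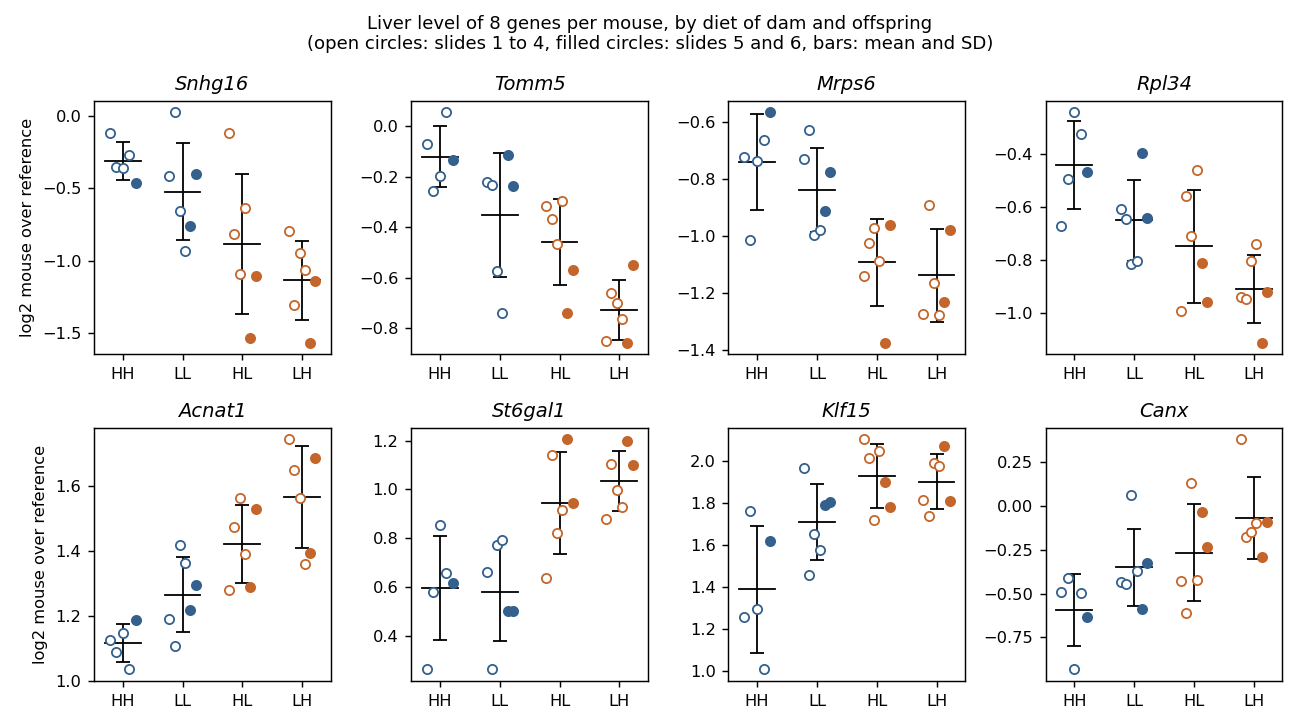
The log2 ratio of mouse over reference is plotted for 8 genes, with 1 circle per mouse, open for slides 1 to 4 and filled for slides 5 and 6, and with the mean and SD of 5 HH and 6 LL, HL and LH mice. The circle of the HH mouse with 2 arrays, on slides 3 and 6, is open. Snhg16, Tomm5, Mrps6 and Rpl34 lie higher in HH and LL (blue) than in HL and LH (orange), whereas Acnat1, St6gal1, Klf15 and Canx lie lower, and the groups overlap in each gene.

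Among the pathway lists, cytosolic ribosomal proteins had the highest share of members with an unadjusted p under 0.05 (48.1%). Of 79 cytosolic ribosomal proteins measured, 38 were higher with matched diets and 0 lower, and the median contrast was 0.35, with 74 of 79 values above 0. Of all named genes 5.67% were higher and 52.6% above 0. The list median of HL minus HH was -0.17 and that of LL minus LH was 0.16. By the median over the list, the 5 HH mice lay between 0.05 and 0.21 log2 units above the mean of all mice. The LL mice lay between -0.02 and 0.14. The HL mice lay between -0.17 and 0.07 and the LH mice between -0.20 and 0.09, so the groups overlapped. Taken alone, slides 1 to 4 gave 13 members higher and 0 lower, with a median of 0.22, against 1.03% of all probes higher. On slides 5 and 6 alone 51 were higher and 1 lower, with a median of 0.60, against 11.3% of probes higher and 10.5% lower. The median was above 0 on 5 of 6 slides.

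Rpl34, a protein of the large subunit, had the lowest p in the list. It was at -0.67, -0.49, -0.25, -0.33 and -0.47 in the HH mice, -0.81 to -0.40 in the LL mice (median -0.64), -0.99 to -0.46 in the HL mice (median -0.76) and -1.11 to -0.74 in the LH mice (median -0.93). All HH mice lay above all LH mice. Its contrast was 0.56 ± 0.14, FDR 0.290, with 0.85 in its other probe. Rpl41 had a contrast of 0.57 ± 0.15 (FDR 0.290), with HL minus HH at -0.40 and LL minus LH at 0.17. Rps19, of the small subunit, had 0.52 ± 0.24 (FDR 0.421), but 0.19 on slides 1 to 4 and 1.23 on slides 5 and 6. Because these transcripts have many pseudogenes and near-identical copies, a probe may read more than 1 of them.

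Transcripts of ribosomal proteins usually begin with a pyrimidine run that couples their translation to nutrient supply. Starts of members with the lowest p that hold CTTTC or CTTTTC within 10 bases of the annotated start are shown to give the letters that were searched for. The 30 bases run from 15 before the start to 15 from it on, from RefSeq on GRCm38.p6, 5′ to 3′ on the strand of the gene, with the motif in capitals.
Rpl34 (chr3:130730323-130730352, minus strand): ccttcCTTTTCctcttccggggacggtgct
Rpl12 (chr2:32961697-32961726, plus strand): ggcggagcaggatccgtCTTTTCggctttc
Rpl35 (chr2:39005117-39005146, minus strand): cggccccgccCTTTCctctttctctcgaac
Rps27 (chr3:90213634-90213663, minus strand): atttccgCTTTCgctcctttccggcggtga
Of 79 measured members 60 had a promoter entry, and 14 of these (23.3%) held the motif on the strand of the gene, against 3.6% of all 27025 genes with an entry. The contrasts of the 4 genes shown were 0.56, 0.69, 0.50 and 0.41. The motif lay before the annotated start in Rpl34, Rpl35 and Rps27 and after it in Rpl12. A match before that start lies outside the annotated transcript, and the counts include such matches. A match is a description of these letters and not a functional site.

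Respiratory chain and ATP synthase genes, which carry electrons and make ATP in mitochondria, had 33 of 84 measured members higher and 0 lower, with a median of 0.25. On slides 1 to 4 alone only 1 was higher and 0 lower (median 0.10), and on slides 5 and 6 alone 46 were higher and 5 lower (median 0.54), against 11.3% and 10.5% of probes. Cox7a2, a subunit of cytochrome c oxidase, was at 0.39, 0.51, 0.58, 0.66 and 0.80 in the HH mice, -0.35 to 0.59 in the LL mice (median 0.36), -0.41 to 0.70 in the HL mice (median 0.00) and -0.51 to 0.01 in the LH mice (median -0.12). All HH mice lay above all LH mice, and the other groups overlapped. The contrast was 0.89 ± 0.25 (FDR 0.290), with 0.80 in its other probe, and 0.49 on slides 1 to 4 against 1.68 on slides 5 and 6. Ndufb4, a subunit of complex I, had 0.63 ± 0.16 (FDR 0.290), with 0.40 and 1.1 on those slides.

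Genes with an unadjusted p under 0.05 differed in length by direction. The median span of the gene in the RefSeq annotation was 14224 bases in the 1046 genes higher with matched diets, 31250 bases in the 1105 lower ones and 19172 bases in all named genes. The part of gene length or RNA quality in the contrast was not tested. Stress and heat shock genes had 5 of 20 higher and 1 lower (median 0.33), with Hspe1, the mitochondrial co-chaperonin, at 0.62 ± 0.21 (FDR 0.311), the immediate early gene Jun at 1.07, and 0 higher on slides 1 to 4 alone.

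Genes of the unfolded protein response and chaperones of the endoplasmic reticulum had mostly negative contrasts. Of 29 measured, 8 were lower and 1 higher at an unadjusted p under 0.05, with a median of -0.41, and 25 had a negative contrast. The background was 5.99% lower. The list median of LH minus HH was 0.45 and that of LL minus HL was 0.09, so by this measure LL did not lie below HL. Within slides 1 to 4 also 8 were lower and 0 higher (median -0.36), against 1.27% of probes lower, and on slides 5 and 6 alone 11 were lower and 1 higher (median -0.48), against 10.5% and 11.3%. Without the HL and LH mice of slides 5 and 6 the count was 4 lower and 0 higher (median -0.29), against 2.31% lower. By slide the list median was 0.06, -0.13, -0.99, -0.25, -0.31 and -0.57 from slide 1 to slide 6. The 2 lowest values, of slides 3 and 6, both use the HH mouse with 2 arrays, so the 6 values rest on 5 HH mice. By the median over the list, the LH mice lay between 0.04 and 0.26 above the mean of all mice. The HH mice lay between -0.51 and -0.07, so the LH and HH mice did not overlap. The HL mice ranged from -0.39 to 0.36 and the LL mice from -0.15 to 0.23 and overlapped with both. Without 4 mice that stood apart (HH replicate 3, HL replicates 1 and 2, LL replicate 6), 15 were lower and 1 higher, against 8.05% of probes lower and 7.33% higher. In that setting 123 probes (0.299%) were called and 6331 (15.4%) had an unadjusted p under 0.05.

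Many genes of this response carry the endoplasmic reticulum stress element, CCAAT and CCACG set 9 bases apart, read by ATF6 and XBP1. The motif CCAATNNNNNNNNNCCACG was searched on both strands of the 250 bases before and 50 bases after each start. It was held by 10 of the 25 measured genes with a promoter entry (40.0%), against 37 of 27025 genes (0.137%). The sites of the 4 genes with the lowest p among those that hold it, and of Hspa5, are shown to give the letters behind the list, with 8 bases on either side, on the strand that reads the motif and with its fixed bases in capitals (RefSeq, GRCm38.p6, 5′ to 3′). Hsp90b1 has a second site.
Canx (chr11:50325792-50325826, minus strand): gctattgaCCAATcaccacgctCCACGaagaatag
Calr (chr8:84847067-84847101, plus strand): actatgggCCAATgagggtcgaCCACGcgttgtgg
Hsp90b1 (chr10:86705525-86705559, plus strand): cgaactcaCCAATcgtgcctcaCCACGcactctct
Pdia6 (chr12:17266483-17266517, plus strand): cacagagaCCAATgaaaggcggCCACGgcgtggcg
Hspa5 (chr2:34772017-34772051, plus strand): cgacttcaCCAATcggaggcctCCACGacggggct
The contrasts of these 5 genes were -0.61, -0.46, -0.50, -0.30 and -0.21. Of the 8 genes lower at an unadjusted p under 0.05, 5 had a promoter entry, and Canx was the 1 of these with the element. Nothing about the factors follows from a match or from its absence.

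Canx, the lectin chaperone of glycoprotein folding, was at -0.49, -0.41, -0.93, -0.50 and -0.63 in the HH mice, -0.59 to 0.06 in the LL mice (median -0.40), -0.61 to 0.13 in the HL mice (median -0.33) and -0.29 to 0.38 in the LH mice (median -0.12). All HH mice lay below all LH mice. The contrast was -0.61 ± 0.19 (FDR 0.303), with -0.36 and -0.80 in its other probes, and -0.57 on slides 1 to 4. Atf6, a membrane-bound sensor of the response, had -0.62 ± 0.19 (FDR 0.298), with -0.62 on slides 1 to 4 and -0.64 on slides 5 and 6. Larger values came with Hyou1 (-1.45) and Pdia4 (-1.28), a chaperone and a disulfide isomerase. Xbp1, the spliced transcription factor of the response, had -1.06 ± 0.42 (FDR 0.351), but -0.33 on slides 1 to 4 and -2.25 on slides 5 and 6, and in the HL mice it ran from -1.06 to 1.19. Hsp90b1 had -0.50 ± 0.33 (FDR 0.588) and 0.05 in its other probe. The 1 member higher was Ddit3 (0.69 ± 0.23, FDR 0.306), the proapoptotic factor of the stress response.

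**Figure D3:**
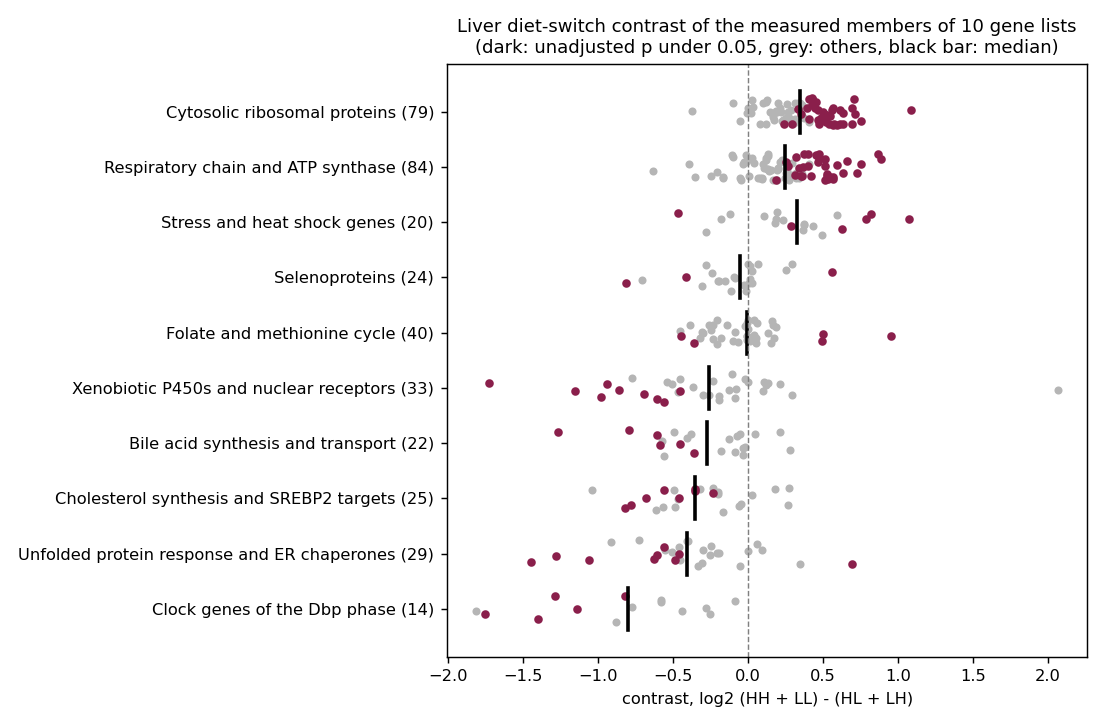
Each dot is the log2 contrast of 1 measured gene in 10 lists, with the number measured in brackets, dark where the unadjusted p was under 0.05, and a black bar at the median. Ribosomal protein and respiratory chain genes lie mostly right of 0 (higher with matched diets), unfolded protein response, cholesterol, bile acid, P450 and Dbp-phase genes mostly left of 0, and selenoproteins and folate genes around 0.

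Clock output genes of the Dbp phase, which peak around the end of the light phase, had 5 of 14 members lower and 0 higher, a median of -0.80, and 14 of 14 negative contrasts. The 5 were Per3, Wee1, Usp2, Tef and Ciart. The list median of HL minus HH was 0.57 and that of LL minus LH was -0.13, so most of the contrast lay under dams on diet H. On slides 1 to 4 alone 0 were lower (median -0.53), and on slides 5 and 6 alone 11 were lower (median -1.59), against 10.5% of probes. Per3, a clock repressor, was at -0.23, -0.11, -0.57, -0.31 and -0.36 in the HH mice, -0.54 to 0.23 in the LL mice (median -0.19), -0.30 to 1.34 in the HL mice (median 0.10) and -0.15 to 1.1 in the LH mice (median 0.26). The groups overlapped. Its contrast was -1.14 ± 0.33 (FDR 0.298), with -0.49 on slides 1 to 4 and -2.57 on slides 5 and 6. Dbp itself had -1.81 but was not among the 5 with an unadjusted p under 0.05. Of 6 genes of the opposite Arntl phase all 6 were positive (median 0.48) and 1 was higher at an unadjusted p under 0.05, while Arntl, the activator of the loop, had 0.94 ± 0.52 (FDR 0.519). The study fasted the mice and fed them again before tissue was taken. The hour of sampling of each mouse is not given in the sources used here, and the part of either in these values was not tested. In the colon the median contrast of the Dbp-phase list was -0.45.

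Cholesterol synthesis genes had 8 of 25 lower and 0 higher (median -0.35). For this list the median of LH minus HH was 0.30 and that of LL minus HL was -0.01. Slides 1 to 4 alone had 0 lower (median -0.09), and on slides 5 and 6 alone 15 were lower (median -0.88), against 10.5% of probes. Fdft1, the squalene synthase, had -0.68 and Msmo1, a sterol oxidase, -0.82.

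**Figure D4:**
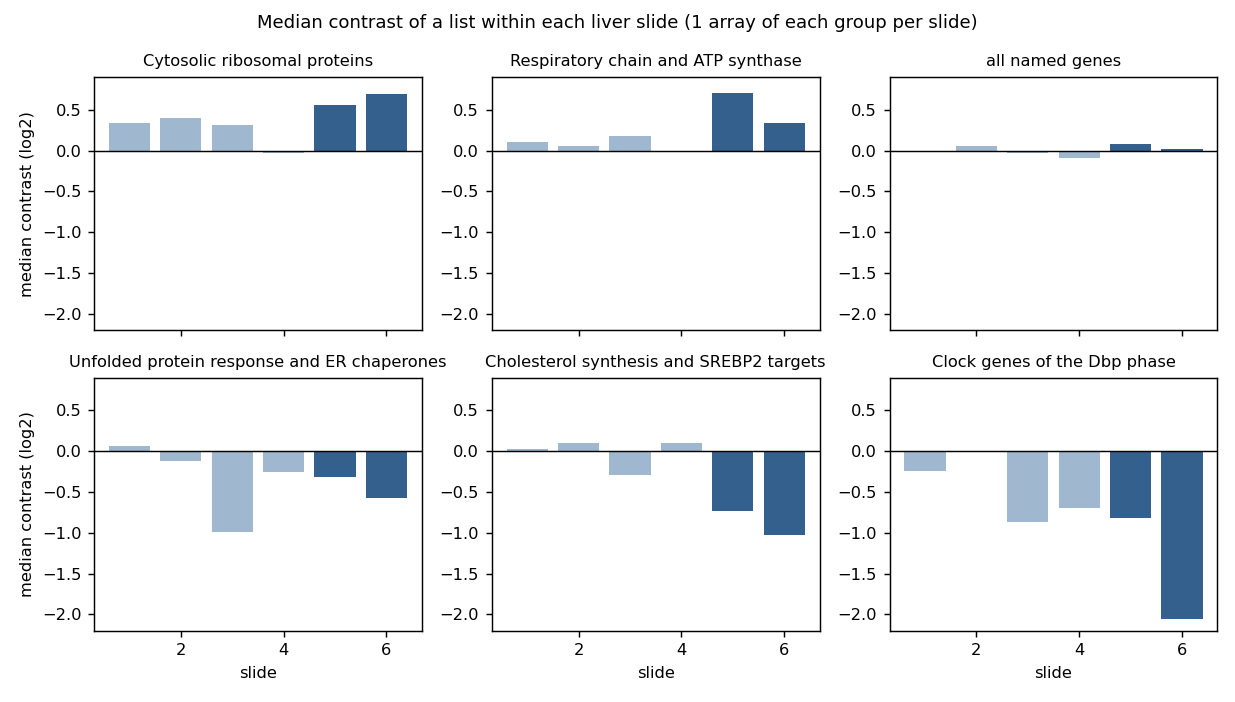
Bars give the median log2 contrast of a list within each of the 6 liver slides, on 1 scale, with slides 5 and 6 dark and all named genes as a comparison. Slides 3 and 6 share 1 HH mouse. Cholesterol and Dbp-phase clock genes reach their lowest medians on slide 6 (-1.02 and -2.05), the unfolded protein response list on slide 3 (-0.99), and the ribosomal protein list is above 0 on 5 of 6 slides.

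Xenobiotic P450s and their nuclear receptors had 9 of 33 lower and 0 higher (median -0.26), with 2 lower on slides 1 to 4 alone (median -0.30). Cyp2c54, a drug-metabolising P450, was at 2.47, 2.64, 0.34, 2.16 and 2.03 in the HH mice, 2.21 to 3.13 in the LL mice (median 2.69), 2.39 to 3.88 in the HL mice (median 3.11) and 3.02 to 3.85 in the LH mice (median 3.16). The lowest HH value belongs to the mouse with 2 arrays. The contrast was -1.72 ± 0.44 (FDR 0.290), and -1.18 on slides 1 to 4. Members of the Cyp2 family share much sequence, so a probe may read more than 1 of them. Cyp2e1 (-0.94), Cyp2a5 (-1.15) and Por (-0.45), which supplies electrons to P450s, were also among the 9. Bile acid genes had 6 of 22 lower and 0 higher (median -0.27). On slides 1 to 4 alone 1 was lower, against 1.27% of probes, and on slides 5 and 6 alone 7, against 10.5%. Slc10a1, the uptake carrier for bile acids, had -0.79 ± 0.23 (FDR 0.298), with -0.46 on slides 1 to 4, and the sterol exporter subunit Abcg8 had -1.26. Without the 4 mice that stood apart the counts were 4 P450 genes lower and 2 higher, and 3 bile acid genes lower and 0 higher. Slc2a2, the glucose transporter of hepatocytes, had -0.76 ± 0.22 (FDR 0.298). Hepatocyte markers had 3 of 10 lower and 0 higher (median -0.28, Alb -0.29). The median over these markers, against the mean of all mice, was -0.32 to -0.01 in the HH mice and -0.19 to 0.19 in the LL mice. It was -0.36 to 0.16 in the HL mice and -0.11 to 0.30 in the LH mice. The part of hepatocyte content in these values was not tested.

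Genes that handle the nutrients that were varied passed an unadjusted p of 0.05 at about the share of all named genes. Selenoproteins had 1 of 24 higher and 2 lower (median -0.05), a share of 12.5% against 11.7% of named genes. Gpx4, the peroxidase that protects membrane lipids, was at -0.11, 0.13, 0.77, 0.54 and 0.57 in the HH mice, -0.20 to 0.04 in the LL mice (median -0.08), -0.31 to 0.40 in the HL mice (median -0.06) and -0.42 to -0.05 in the LH mice (median -0.22). The LL, HL and LH mice overlapped, and 3 of the HH mice lay above all others. Its contrast was 0.56 ± 0.18 (FDR 0.303). Sephs2, which makes the selenium donor, had -0.81, and Txnrd3 -0.41. Folate and methionine cycle genes had 3 of 40 higher and 2 lower (median -0.01), 12.5% in all. Enzymes and readers of DNA methylation had 1 of 12 higher and 0 lower, which was Dnmt3a (0.75 ± 0.27, FDR 0.326), a de novo methyltransferase with 0.19 and -0.08 in its other probes. Zinc transporters and metallothioneins had 1 of 23 higher and 6 lower (median -0.04), a larger share of 30.4% against 11.7% of named genes.

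Of the immune and other lists, interferon response genes had 7 of 31 lower and 2 higher (median -0.17). On slides 1 to 4 alone 1 was lower and 0 higher. Acute phase proteins had 4 of 26 lower and 1 higher, with Crp at -0.49 ± 0.13 (FDR 0.290). Growth hormone and STAT5 targets had 4 of 14 lower and 0 higher, with Ghr, the receptor, at -0.73 ± 0.25 (FDR 0.312) and Bcl6, a repressor of the pathway, at -1.80 ± 0.76 (FDR 0.380). Erythroid markers had 3 of 8 higher and 1 lower, with Hba-a1, an alpha globin, at 0.72 and Klf1 at -0.66. Kupffer macrophage markers had 1 of 12 higher and 0 lower. Pancreatic acinar markers had 0 of 11 higher and 1 lower. Fatty acid oxidation genes and PPAR alpha targets had 4 of 39 lower and 1 higher (median -0.24). Of these, 0 were lower on slides 1 to 4 alone. On slides 5 and 6 alone 13 were lower and 4 higher, against 10.5% and 11.3% of probes. Fatty acid synthesis genes had 1 of 24 in each direction (median -0.10), with medians of 0.12 on slides 1 to 4 and -0.62 on slides 5 and 6. Genes of gluconeogenesis and glycolysis had 5 of 30 lower and 1 higher (median -0.19). Urea cycle and amino acid breakdown genes had 2 of 24 lower and 0 higher (median -0.15), and Nrf2 targets and glutathione S-transferases 1 of 29 lower and 3 higher (median 0.04).

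In the colon, 0 probes passed the same contrast, 737 (1.79%) had an unadjusted p under 0.05, and the lowest FDR was 1.00. A size over 1.5-fold was also met by 16 of them (0.0389% of probes). The difference of the contrast between liver and colon, tested in 1 model of both tissues, also gave 0 probes, a lowest FDR of 0.981 and 1786 probes (4.34%) at an unadjusted p under 0.05. For the 24 genes the colon contrast lay between -0.41 and 0.35, and 1 of them had an unadjusted p under 0.05. In the test of the difference 21 of the 24 had an unadjusted p under 0.05, which is no independent evidence because they were chosen on the liver values, and no FDR was under 0.981. The contrast was thus not shown to differ between the tissues for any gene.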

How the data were processed

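The authors deposited unnormalized Feature Extraction output per array, from which median spot and local background intensity were read for Cy3 and Cy5, and a processed log2 ratio table that runs as reference over mouse. That deposited log2 table, with the sign turned, correlated at 1.00 on every array with loess without background correction. The submitters' processing notes name limma and R 3.0.2. Spots whose local background exceeded the spot took the median background of the array, background was corrected with normexp (offset 50), and ratios were normalized by global loess within arrays, in R 4.3.3 with limma 3.58.1. Control spots and outlier-flagged spots were left out and replicate spots averaged into 41174 probes, 27050 of them named through RefSeq accessions. The 4 liver groups were fitted with limma (lmFit and eBayes) over the 41171 probes measured in 2 or more mice of every group, with Benjamini-Hochberg FDR. Labels do not tie mice to litters, so p-values measure the spread between these mice.

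Spots well above background in Cy3 were 55.1 to 66.0% per liver array, and precision is limited by the number of arrays. For each gene the probe with the highest mean Cy3 signal was used. Named genes were the 12 with the lowest p in each direction with a contrast over 1.5-fold and a signal well above background on at least 12 liver arrays, the called genes of each list or else its 2 with the lowest p, and 7 genes named by the study. Others are named as examples of a count. Some genes that the rule names are not reported here. The members, gene lists and alternatives were chosen with earlier results of these data known. Alternatives covered background, normalization, the Cy3 channel alone, the deposited ratios, dim probes, the animal with 2 arrays, slide and position as blocks, contrasts within slides, all 8 groups in 1 fit, array weights, trend and robust moderation, thresholds, and each mouse left out. The model was tested on simulated data.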

Additional observations from a re-analysis of the deposited data

Results flagged for a closer look

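In 224 groups of 5 or 6 mice (49 genes and 7 list medians in each diet group), the highest or lowest mouse stood apart by Dixon's criterion in 11, or 4.91%. The limits used mark about this share of groups by chance when values are normally spread, so the count is no finding in itself. These groups also share mice. The HH mouse with 2 arrays (HH replicate 3) accounted for 3 of them. It lay at 0.34 for Cyp2c54 (others 2.03 to 2.64), at 1.04 for Slc2a2 (others 1.77 to 1.94) and at 0.11 for Paip2b (others -0.29 to -0.18). HH replicate 4 lay at -0.30 for Bcl6 (others -2.27 to -1.88) and at -0.01 for the median of cholesterol synthesis genes (others -0.25 to -0.19).

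HL replicate 1 lay at 3.64 for the median of pancreatic acinar markers, against -0.44 to 0.30 in the other HL mice. Without this mouse 0 probes were called, and 5897 had an unadjusted p under 0.05.

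The remaining 5 were spread over 5 mice. LH replicate 1 lay at 0.38 for Canx (others -0.29 to -0.09) and LH replicate 5 at 3.85 for Cyp2c54 (others 3.02 to 3.32). LL replicate 6 lay at -0.28 for Cyp2j13 (others 0.09 to 0.27). LL replicate 2 lay at -0.55 for the median of Dbp-phase clock genes (others -0.08 to 0.20). LH replicate 4 lay at 0.09 for the median of ribosomal proteins (others -0.20 to -0.10).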

How the results depend on the processing

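Across 46 alternatives run on the 82 named genes, leave-outs included, 2 genes changed sign. These were Ugt2b38 (0.0516) and Mbd2 (0.00721), on slides 1 to 4 alone, and 42 genes passed the threshold in at least 1 alternative. The count of 0 called probes became 3 with slide as a block, 52 in 1 fit of all 8 groups, 502 with array weights, 123 without the 4 mice that stood apart and 1358 on slides 5 and 6 alone, and it was 0 to 0 with each mouse left out. The 4674 probes at an unadjusted p under 0.05 became 2766 with normexp without the repair of the local background, 8513 with array weights, 1672 without the HL and LH mice of slides 5 and 6, 947 on slides 1 to 4 alone and 8916 on slides 5 and 6 alone, and ranged from 3413 to 5998 with each mouse left out. Of the pathway list members, 183 had an unadjusted p under 0.05, and 68, 38 and 311 in the last 3 of these settings, with 137 to 204 when each mouse was left out. In the simple diet effects, 0 probes were called, but 6 with the 2 arrays of 1 HH mouse as 2 mice, 1 with slide as a block, 4 with slide and position as blocks, 106 in 1 fit of all 8 groups, 2 with array weights, and 0 to 2 with each mouse left out. The study itself reported called liver probes for HH against HL, HH against LH and LH against LL at the same fold and FDR thresholds. The reason for that gap was not tested. The settings without the 4 mice that stood apart, without the HL and LH mice of slides 5 and 6, and on either set of slides alone were chosen after seeing the data. The cause of these differences was not tested. Aquantile leaves ratios unchanged by construction. No paired analysis was possible because no label ties a mouse of one group to a mouse of another. Slide, which held 1 array of each group, was the one matching that the labels give, and as a block it gave the 3 called probes above. Fits with slide as a block took the 2 arrays of 1 HH mouse separately, at reduced weight, so they do not treat that mouse as 1 value. Named genes without a signal well above background on 12 liver arrays limit what can be said of low transcripts.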

Other observations

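Cyp1a1, the P450 induced through the aryl hydrocarbon receptor, had a contrast of 2.07 ± 1.28 (SE) that rests on 2 HH mice. Its log2 ratio was 2.87 in HH replicate 1 and 3.64 in HH replicate 4, and it lay between -3.62 and -0.81 in the other 21 mice. The gene was singled out after its values were seen.

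Of Ugt genes, enzymes of glucuronidation, 5 of 15 were lower and 0 higher with matched diets at an unadjusted p under 0.05 (median -0.37), against 1 of 40 proteasome genes lower and 1 higher (median -0.02) and 4 of 52 Eif genes of translation initiation lower and 3 higher. These families were chosen after their values were seen.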
